A study of Mus musculus with 8 samples.

Results

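Chemokine ligands were followed in pancreas that had lost Lmna, the gene of lamin A/C, and in control pancreas. Members were the genes whose array row carried a single gene symbol beginning with Ccl, Cxcl, Cx3cl or Xcl and a number. This gave 35 rows and 34 genes of 22180 genes measured, and for the gene with several rows (Ccl27a) only its row of highest mean was used. Total RNA of pancreas from C57 BL6 mice was measured on 8 arrays, 6 days after tamoxifen at 3 mg per 40 g of body weight by intraperitoneal injection. The Lmna knockout group (LmnaKO, called KO here) had 4 arrays and the control group (LmnaWT, called WT here) had 4 arrays, each with 3 males and 1 female, the female being number 4 in both. Both groups received tamoxifen. Acinar cells are given by the title of the series as the site of the ablation. The labels do not name the Cre driver, the ages of the mice or the floxed allele. All values are log2 expression values as deposited, and all differences are log2, KO minus WT.

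Chemokines are small secreted proteins that guide leukocytes along concentration gradients by binding receptors of the G protein-coupled family. They are named by the spacing of their first cysteines as CC, CXC, CX3C and XC ligands. In the pancreas they are best known from pancreatitis, in which acinar, stellate and immune cells release ligands that draw monocytes and neutrophils into the tissue. The 34 ligands were divided by the leukocyte each is best known to attract in mouse: 9 monocyte-attracting, 5 neutrophil-attracting, 14 lymphocyte-attracting and 3 eosinophil-attracting genes, with 3 others. Several attract more than a single cell type, so the division is a simplification.

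The targeted gene, Lmna, read 2.33, 2.58, 2.73 and 2.61 in KO 1 to KO 4, against 2.54, 3.13, 2.67 and 2.88 in WT 1 to WT 4. Its difference was -0.24 ± 0.15 (SE, adjusted p = 0.264), and as it is not known whether the row lies in the deleted part of the gene, it does not check the labels. The pancreas markers fixed for acinar cells were high in all arrays, with a mean level over 9 genes of 9.33 to 9.53 in KO and 10.03 to 10.18 in WT. Over all rows the interquartile range was 2.45 to 2.65 in KO and 2.06 to 2.20 in WT. Of the 9 acinar markers 4 were called lower in KO (limma), where 6.99% of all genes and 14.2% of genes with a mean level of 8 or more were. In bulk tissue, fewer cells of a type and less RNA per cell cannot be told apart.

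Of the 34 chemokine ligands, 2 were called higher in KO (Ccl8 and Cxcl16) and 3 lower (Cx3cl1, Cxcl11 and Xcl1). A call is an adjusted p under 0.05 from limma, fitted and adjusted over all 22180 genes. Of all genes 14.6% were called higher and 6.99% lower (21.6% in either direction), so the ligands' counts do not set them apart. The median difference was 0.26 over the 34 ligands and -0.06 over all genes, with 24 ligands above and 10 below 0. The differences ran from -0.66 for Cx3cl1 to 2.09 for Ccl3. At an unadjusted p under 0.05 there were 8 ligands. With a difference of at least 1 log2 unit required as well, 2 ligands were called higher (Ccl8 and Cxcl16) and 0 lower, where 4.77% and 0.523% of all genes were. When the deposited values were quantile normalized, when they were normalized by cyclic loess, or when males alone were fitted, 0 ligands were called in either direction (limma). Calls over all 22180 genes also fell in these fits, to 2370, 2699 and 915 in that order, from 4792. As deposited, the arrays did not share a distribution. Besides the interquartile ranges above, their medians were 2.13 to 2.17 in KO and 2.22 to 2.33 in WT. The part of this in the lost calls was not tested.

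**Figure D1:**
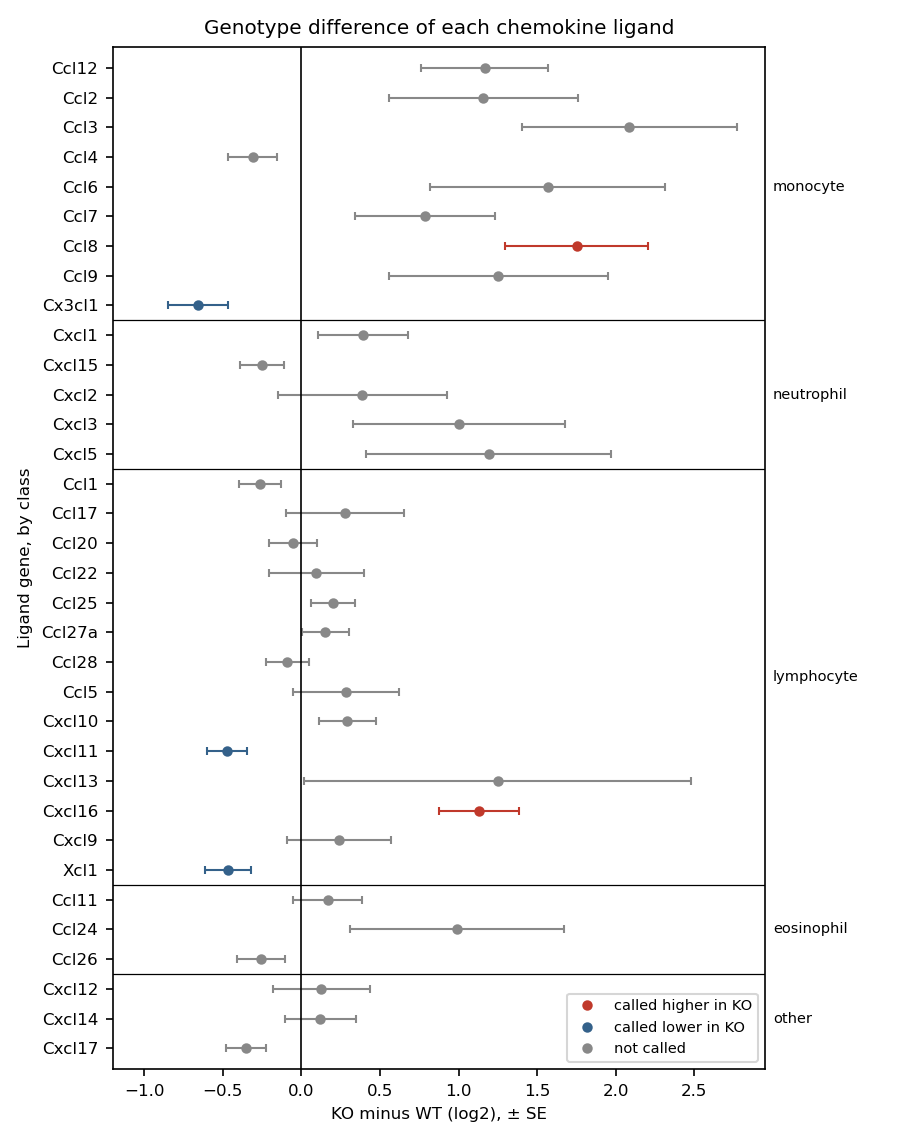
Difference of each of the 34 ligands, KO minus WT on the log2 scale (x axis, points, with bars of 1 SE from limma), ordered by class (y axis). Red points are the 2 ligands called higher in KO, blue points the 3 called lower, grey points those not called; among the monocyte-attracting ligands the differences run from -0.66 to 2.09.

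The monocyte-attracting ligands had the highest median difference of the 5 classes, 1.17, with 7 of 9 members above 0. One member was called higher and 1 lower. That median was 0.69 without KO 4 and 0.63 in males only. By class, the medians were 0.39 for neutrophil-attracting, 0.18 for lymphocyte-attracting, 0.17 for eosinophil-attracting and 0.12 for the other ligands. Leaving out 1 array moved the neutrophil-attracting median between 0.17 (without KO 4) and 0.94 (without KO 3), the lymphocyte-attracting median between 0.032 (without WT 1) and 0.26 (without KO 3), and the eosinophil-attracting median between -0.072 (without KO 4) and 0.31 (without KO 3). No test was made between classes, whose members share the same arrays. The classes also differed in median level: 3.56 for monocyte-attracting, 2.32 for neutrophil-attracting, 2.32 for lymphocyte-attracting, 3.75 for eosinophil-attracting and 3.45 for the other ligands. All genes at a level of 3 to 4 had a median difference of 0.26, and those at 2 to 3 of -0.17. The part of level in the order of the classes was not tested.

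Ccl8 encodes a monocyte chemoattractant protein whose mouse form signals through CCR8. It read 3.28, 4.81, 4.11 and 5.56 in KO 1 to KO 4, against 2.87, 3.44, 2.34 and 2.09 in WT 1 to WT 4. The groups overlapped through a single array each, since KO 1 lay below WT 2, while KO 2, KO 3 and KO 4 exceeded every WT value. Ccl8 averaged 4.44 ± 0.97 in KO and 2.69 ± 0.60 in WT (SD, n = 4 each) and rose by 1.75 ± 0.46 (3.37-fold, adjusted p = 0.0253, exact two-sided permutation p = 0.0571). With the replicate number as a block the adjusted p was 0.0217. The call was lost without KO 2, KO 4, WT 3 or WT 4 (differences from 1.38 to 2.14 over the arrays left out), in males only and after both renormalizations.

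Promoter sequences are given for Ccl8, which was called higher, and for its chromosome 11 relatives Ccl6 and Ccl9, called with the replicate block alone. They come from RefSeq on the build GRCm38.p6, all on chromosome 11, and run from 250 bases before to 50 bases after the start site, 5′ to 3′ on the strand of the gene. Ccl8 lies at chr11:82114935-82115234 on the plus strand, Ccl6 at chr11:83593038-83593337 on the minus strand and Ccl9 at chr11:83578587-83578886 on the minus strand. Capitals mark matches on either strand to any of 6 motifs: the NF-kappaB consensus, the TATA box (TATAAA), AP-1 (TGANTCA), the PU.1 core (GAGGAA), C/EBP (TTGCNNAA) and IRF (GAAA, any 2 bases, GAAA). Overlapping matches were each counted.
Ccl8: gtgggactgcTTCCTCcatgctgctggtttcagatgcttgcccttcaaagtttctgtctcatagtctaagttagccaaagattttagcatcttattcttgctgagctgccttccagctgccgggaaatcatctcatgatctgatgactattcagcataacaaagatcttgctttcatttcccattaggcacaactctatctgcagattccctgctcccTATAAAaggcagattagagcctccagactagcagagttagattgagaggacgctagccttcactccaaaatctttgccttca
Ccl6: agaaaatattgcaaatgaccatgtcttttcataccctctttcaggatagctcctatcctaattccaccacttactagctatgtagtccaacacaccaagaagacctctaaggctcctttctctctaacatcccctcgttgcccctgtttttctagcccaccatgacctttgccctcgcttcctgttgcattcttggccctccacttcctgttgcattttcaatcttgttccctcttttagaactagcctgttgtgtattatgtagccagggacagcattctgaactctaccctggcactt
Ccl9: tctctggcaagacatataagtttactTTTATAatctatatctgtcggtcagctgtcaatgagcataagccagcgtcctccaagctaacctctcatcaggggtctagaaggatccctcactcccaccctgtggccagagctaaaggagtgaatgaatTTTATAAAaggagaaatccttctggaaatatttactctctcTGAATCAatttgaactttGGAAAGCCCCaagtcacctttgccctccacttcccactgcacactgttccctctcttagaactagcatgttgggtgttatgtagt
The Ccl8 window held a PU.1 core, read on the opposite strand near its start, and a TATA box. In the Ccl9 window were TATA box letters on both strands, an AP-1 match and an NF-kappaB match, while none of the 6 motifs was in the Ccl6 window. Promoters were found for 23 of the 34 ligands, 26 promoters in all. None was found for Cxcl16, the other ligand called higher. The promoter of Ccl3, also called with the block, held a PU.1 core and is not printed. Ligands are counted below by gene, a match in any promoter of the gene being enough, while all genes are counted by promoter. The shares are therefore not in like units. The NF-kappaB consensus was present for 8 of these 23 genes (Ccl1, Ccl9, Ccl20, Ccl27a, Cxcl1, Cxcl2, Cxcl3 and Cxcl10) and in 8.46% of 32851 promoters of all genes. Without the replicate block none of those 8 genes was called, where 21.6% of all genes were, and a count over 8 genes is too small to read. A TATA box was present for 9 of the 23 genes and in 13.6% of all promoters, and a PU.1 core for 8 genes and in 28.3% of all promoters. AP-1 matches stood in 5 of the 23 genes and 7.81% of all promoters, C/EBP matches in 2 genes and 10.8%, and IRF matches in 2 genes and 3.44%. These are matches of letters only.

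Ccl2, Ccl7 and Ccl12 encode the ligands of CCR2, the receptor that draws inflammatory monocytes from blood. These 3 genes were chosen for description after their values were seen. Ccl2 read 3.68, 4.59, 2.50 and 5.76 in KO 1 to KO 4, against 2.61, 3.85, 2.46 and 2.97 in WT 1 to WT 4. KO 1 and KO 3 lay within the WT range, and the difference of 1.16 ± 0.60 was not called (adjusted p = 0.176). For Ccl12 the values were 2.30, 2.43, 2.05 and 4.18 in KO and 1.37, 1.92, 1.58 and 1.41 in WT. The groups did not overlap, and KO 4 stood far above the other KO arrays. The exact two-sided permutation p was 0.0286, and no lower p is possible with 4 arrays in each group. The difference of 1.17 ± 0.40 missed the threshold (adjusted p = 0.0645, and 0.0503 with the replicate block). Without KO 4, with sex as a term and after median centring Ccl12 was called. Ccl7 read 4.36, 4.35, 3.35 and 5.80 in KO, against 3.45, 4.39, 3.45 and 3.43 in WT (difference 0.79 ± 0.45, adjusted p = 0.213). In all 3 genes KO 4, the female, was the highest of the 8 arrays.

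Ccl3, Ccl6 and Ccl9 encode ligands of CCR1, a receptor of monocytes and, in mouse, of neutrophils. Ccl3 had the largest difference of all 34 ligands and read 3.70, 6.05, 3.55 and 6.74 in KO 1 to KO 4, against 2.80, 3.78, 2.32 and 2.80 in WT 1 to WT 4. KO 2 and KO 4 stood more than 2 log2 units above KO 1 and KO 3, and these last overlapped WT 2. The difference was 2.09 ± 0.69 (4.25-fold, adjusted p = 0.0552), and with the replicate block it was called (adjusted p = 0.0149). Ccl6 read 5.61, 7.96, 6.00 and 8.03 in KO, against 3.98, 7.15, 4.51 and 5.69 in WT. Ccl9 read 6.49, 8.64, 7.15 and 8.86 in KO, against 5.47, 8.19, 5.41 and 7.05 in WT. In both genes the 2 groups overlapped, with WT 2 the highest WT array, and yet each KO array lay above the WT array of the same number. Ccl6 differed by 1.57 ± 0.75 (adjusted p = 0.148) and Ccl9 by 1.25 ± 0.70 (adjusted p = 0.204). With the replicate block, which compares arrays of equal number, Ccl6 (1.57 ± 0.23, adjusted p = 0.00457) and Ccl9 (1.25 ± 0.23, adjusted p = 0.00968) were called higher in KO.

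With that block 5 ligands were called higher (Ccl3, Ccl6, Ccl8, Ccl9 and Cxcl16), where 16.7% of all genes were, and 1 lower (Cxcl11), where 6.08% were. Cx3cl1 (adjusted p = 0.0552) and Xcl1 (adjusted p = 0.0629) lost their call with the block.

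Ccl4, a close relative of Ccl3, was dim and had a different pattern. It read 1.66, 2.18, 1.77 and 2.09 in KO, against 1.96, 2.38, 2.28 and 2.32 in WT (difference -0.31 ± 0.16, adjusted p = 0.167). Cx3cl1, the membrane-bound fractalkine that holds CX3CR1-bearing monocytes, was called lower. Its values were 2.11, 1.75, 2.00 and 1.70 in KO, against 2.02, 2.87, 2.59 and 2.72 in WT, with WT 1 inside the KO range. The difference was -0.66 ± 0.19 (adjusted p = 0.0357, exact two-sided permutation p = 0.0571). It lost its call in 12 of 17 alternatives, among them the leaving out of KO 2, KO 3, KO 4, WT 2, WT 3 or WT 4. Its receptor gene Cx3cr1 averaged 4.15 ± 0.25 in KO and 4.18 ± 0.33 in WT and was not called (adjusted p = 0.915).

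**Figure D2:**
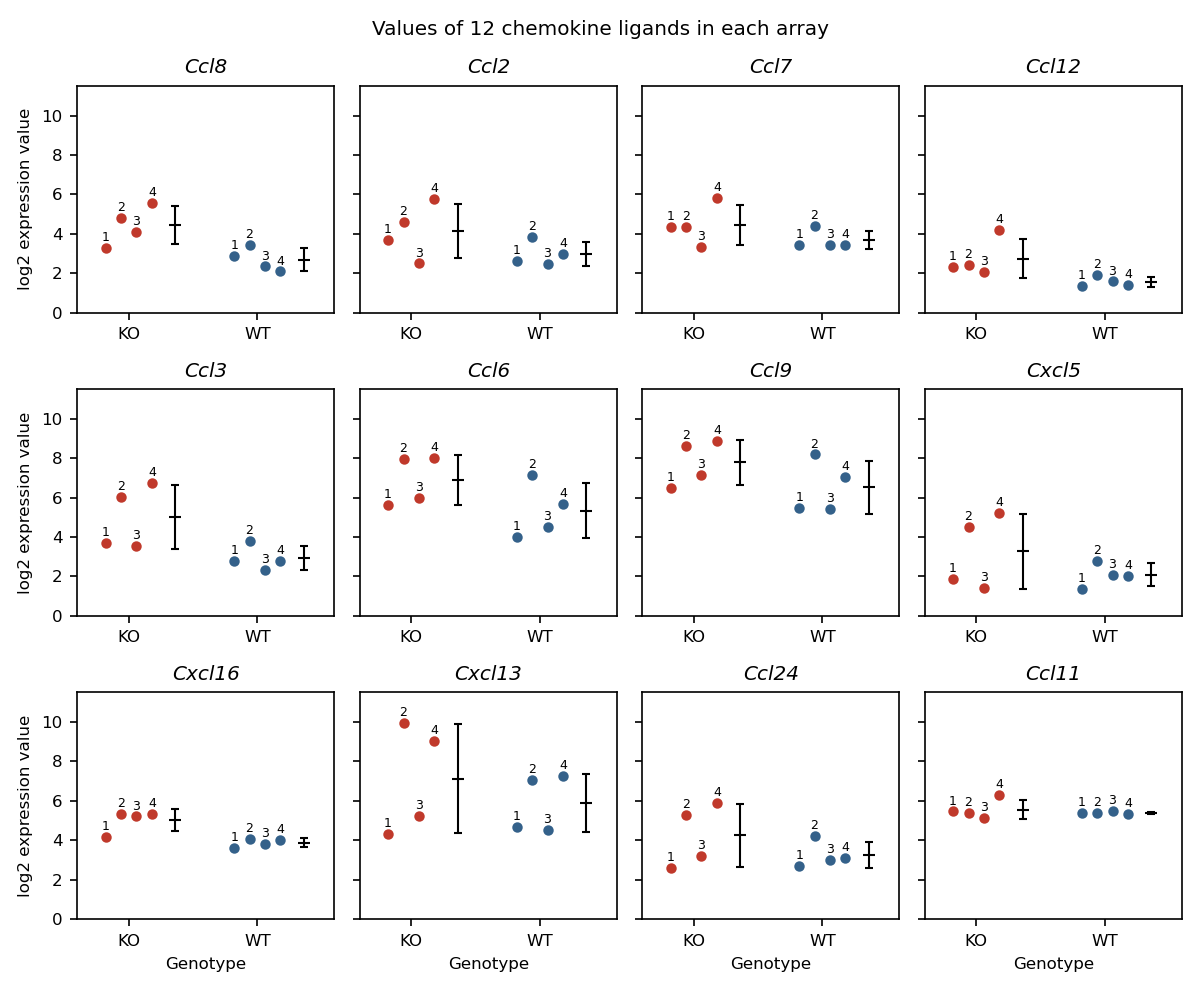
Log2 expression values (y axis) of 12 ligands in the 4 KO arrays (red, left) and the 4 WT arrays (blue, right); numbers are replicate numbers, and the black marks with bars are mean ± SD. In Ccl3, Cxcl5, Cxcl13 and Ccl24, KO 2 and KO 4 stand apart from KO 1 and KO 3, while Ccl11 lies between 5.12 and 6.28 in all 8 arrays.

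Most neutrophil-attracting ligands bind CXCR2. Of the 5 genes 0 were called by limma in either direction (0 also at an unadjusted p under 0.05, and 0 with the replicate block). Cxcl5, which epithelial cells release in inflammation, read 1.88, 4.53, 1.43 and 5.23 in KO 1 to KO 4, against 1.38, 2.81, 2.09 and 2.03 in WT 1 to WT 4. KO 2 and KO 4 were above all WT arrays, and KO 1 and KO 3 lay below WT 3. The difference was 1.19 ± 0.78 (adjusted p = 0.272). It was 0.54 without KO 4, 0.77 without KO 2, 1.80 without KO 3 and 0.52 in males only. Cxcl3 showed the same split, with 0.91, 3.79, 1.02 and 3.68 in KO and 1.16, 2.23, 1.02 and 0.97 in WT (adjusted p = 0.284). Cxcl2 read 3.01, 3.85, 1.74 and 4.92 in KO and 2.90 to 3.11 in WT (0.39 ± 0.54, adjusted p = 0.601). Cxcl1 differed by 0.39 ± 0.29 (adjusted p = 0.323). Cxcl15, known from the lung, stayed between 1.46 and 2.17 in all arrays (-0.25 ± 0.14, adjusted p = 0.209). The standard deviation was larger in KO than in WT for all 5 of these genes (median SD 1.35 in KO and 0.46 in WT), as it was for 20 of the 34 ligands (58.8%) and for 33.1% of all genes.

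Among the 14 lymphocyte-attracting ligands 1 was called higher and 2 lower. Cxcl16, a membrane-bound ligand of CXCR6 that also serves as a scavenger receptor, read 4.17, 5.34, 5.21 and 5.33 in KO 1 to KO 4, against 3.62, 4.08, 3.79 and 4.03 in WT 1 to WT 4. All KO arrays were above all WT arrays, KO 1 being the lowest of the KO arrays by about 1 log2 unit. Cxcl16 averaged 5.01 ± 0.57 in KO and 3.88 ± 0.21 in WT (SD, n = 4 each) and rose by 1.13 ± 0.26 (2.19-fold, adjusted p = 0.0151, exact two-sided permutation p = 0.0286). It was called without each array in turn (differences from 1.02 to 1.41) and with the replicate block (adjusted p = 0.00521). Only in males alone and after the renormalizations (quantile and cyclic loess) was the call lost among the alternatives run. Its receptor gene Cxcr6 was dim, at 1.15 ± 0.11 in KO and 1.29 ± 0.04 in WT (adjusted p = 0.351).

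Cxcl13, which guides B cells through CXCR5, varied strongly within both genotypes. It read 4.30, 9.93, 5.24 and 9.03 in KO 1 to KO 4, against 4.69, 7.05, 4.51 and 7.26 in WT 1 to WT 4. In both genotypes numbers 2 and 4 were high and numbers 1 and 3 low, and the groups overlapped. The difference of 1.25 ± 1.23 was not called (adjusted p = 0.461, and 0.0803 with the replicate block) and ran from 0.31 to 2.19 as arrays were left out. The B cell gene Ms4a1 read 1.23, 4.61, 1.26 and 2.38 in KO, against 1.34, 1.37, 1.37 and 3.504 in WT. The B cell marker list as a whole (6 of 7 measured) had a mean level of 1.93 to 4.76 in KO and 2.13 to 3.63 in WT, highest in KO 2 and WT 4, and 0 of its 6 genes were called (limma, 0 also at an unadjusted p under 0.05). Its part in the Cxcl13 values was not tested.

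Cxcl11, a CXCR3 ligand, is listed in the RefSeq table as a transcribed pseudogene. It read 1.41, 1.21, 1.44 and 1.54 in KO and 1.87, 1.74, 2.10 and 1.78 in WT. The groups did not overlap, and the difference was -0.47 ± 0.13 (adjusted p = 0.0289, exact two-sided permutation p = 0.0286). Xcl1, known as lymphotactin, read 1.25, 1.33, 1.56 and 1.25 in KO and 1.85, 1.49, 1.83 and 2.08 in WT, with KO 3 above WT 2. It differed by -0.47 ± 0.15 (adjusted p = 0.048, exact two-sided permutation p = 0.0571). Without any KO array in turn, or without WT 3, both lost their call, and Xcl1 also lost it without WT 1 or WT 4.

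The other 2 CXCR3 ligands, which interferon gamma induces, were not called. Cxcl10 read 2.23 to 2.63 in KO and 1.83 to 2.63 in WT (0.29 ± 0.18, adjusted p = 0.244). Cxcl9 read 2.38 to 2.62 in KO and 1.49 to 3.32 in WT, where WT 4 was the highest (0.24 ± 0.33, adjusted p = 0.6). Ccl5, which attracts T cells and monocytes, read 3.28, 3.99, 3.95 and 4.57 in KO and 3.01, 3.53, 3.60 and 4.52 in WT, each KO array being above the WT array of its number (0.28 ± 0.34, adjusted p = 0.54). The remaining lymphocyte-attracting genes (Ccl1, Ccl17, Ccl20, Ccl22, Ccl25, Ccl27a and Ccl28) include homeostatic ligands of gut and skin. Their differences ran from -0.26 for Ccl1 to 0.28 for Ccl17, and their adjusted p from 0.174 to 0.83.

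Of the eosinophil-attracting ligands, which bind CCR3, 0 of 3 were called (limma, 0 also at an unadjusted p under 0.05). Ccl24 read 2.60, 5.28, 3.19 and 5.90 in KO 1 to KO 4, against 2.71, 4.21, 2.99 and 3.11 in WT 1 to WT 4, again with KO 2 and KO 4 on top (0.99 ± 0.68, adjusted p = 0.295). The difference was 0.44 without KO 4, 0.64 without KO 2, 1.54 without KO 1 and 0.39 in males only. Ccl11, which fibroblasts release, read 5.46, 5.38, 5.12 and 6.28 in KO, against 5.38, 5.39, 5.48 and 5.33 in WT (0.17 ± 0.22, adjusted p = 0.584). All values other than that of KO 4 lay between 5.12 and 5.48, and the direction turned without KO 4 (-0.072), in males only and after both renormalizations. Ccl26 was dim, at 1.33 to 1.70 in KO and 1.48 to 2.02 in WT (-0.26 ± 0.15, adjusted p = 0.235).

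Among the 3 other ligands, Cxcl12, which holds progenitors and lymphocytes through CXCR4, read 4.09, 5.67, 4.39 and 4.91 in KO and 4.26, 4.86, 4.58 and 4.86 in WT (0.12 ± 0.31, adjusted p = 0.776). Its direction turned without KO 2 (-0.18) and after both renormalizations. Cxcl14 differed by 0.12 ± 0.22 (adjusted p = 0.7). Cxcl17, a mucosal ligand, read 2.17, 1.99, 1.97 and 2.18 in KO and 2.63, 2.30, 2.54 and 2.26 in WT. Its groups did not overlap, but the difference of -0.35 ± 0.13 was not called (adjusted p = 0.0736). In all, 2 ligands (Ccl12 and Cxcl16) lay wholly higher in KO and 3 (Ccl1, Cxcl11 and Cxcl17) wholly lower, where 15.3% and 12.1% of all genes did.

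**Figure D3:**
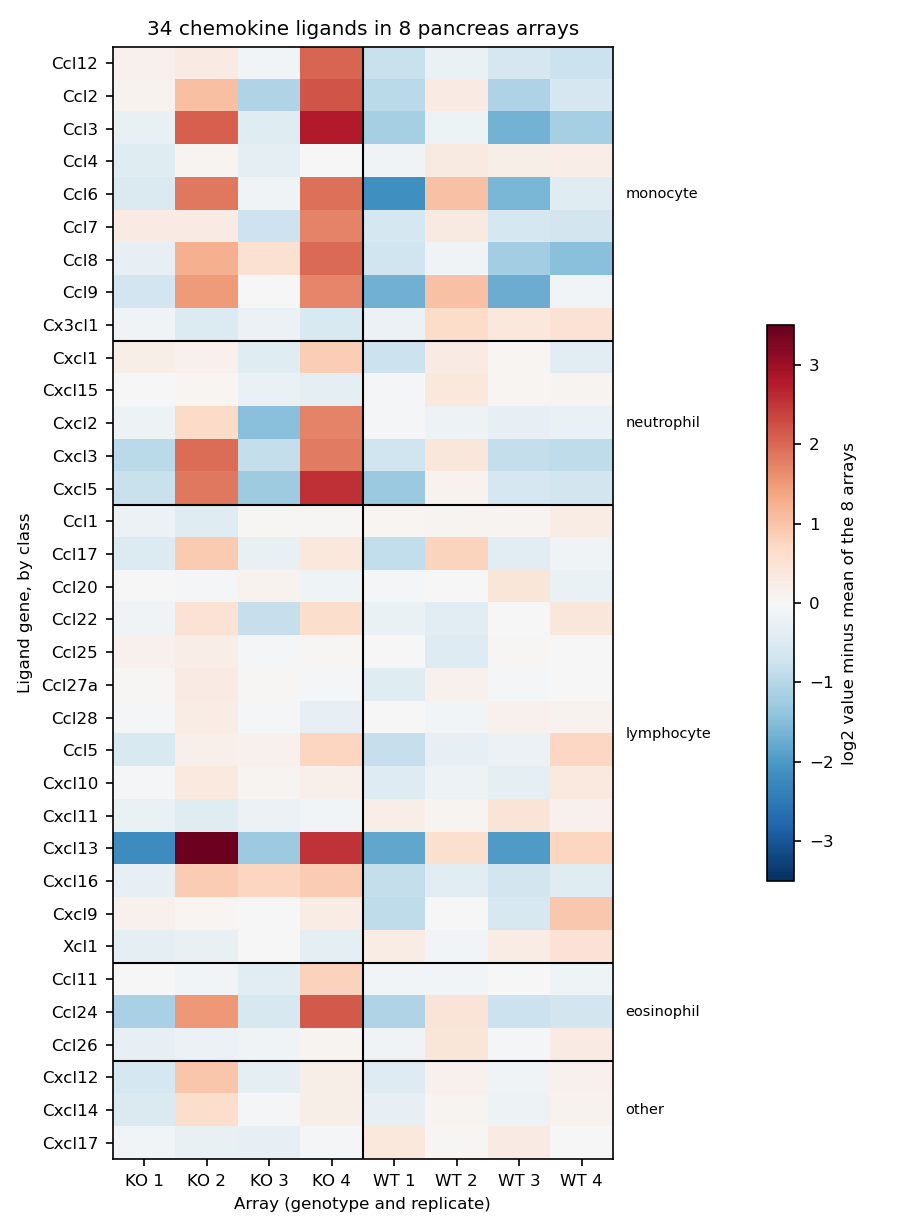
The log2 value of each ligand (rows, by class) in each array (columns, KO left of the line and WT right of it), minus its mean over the 8 arrays; red is above and blue below that mean. KO 4 and KO 2 hold the highest value of all 8 arrays in 14 and 10 of the 34 ligands.

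Ligand values differed between arrays of a genotype. KO 4 was the highest of the 8 arrays for 14 of the 34 ligands and KO 2 for 10, while KO 1 and KO 3 were the highest for 0. Among the 15 ligands with a mean level of at least 3, KO 4 was the highest for 10 and KO 2 for 5. WT 2 was the highest WT array for 9 of these 15. To give each class a level in each array, every gene's 8-array mean was subtracted and the remainders were averaged over the class. For the monocyte-attracting ligands it was -0.19, 0.87, -0.27 and 1.54 in KO 1 to KO 4, against -0.93, 0.34, -0.88 and -0.49 in WT 1 to WT 4. The neutrophil-attracting ligands had -0.34, 0.94, -0.83 and 1.33 in KO, against -0.57, 0.20, -0.31 and -0.41 in WT. Lymphocyte-attracting ligands varied less, with -0.30, 0.42, -0.10 and 0.34 in KO, against -0.41, -0.01, -0.19 and 0.25 in WT. KO 1 and KO 3 thus lay above 3 of the 4 WT arrays for the monocyte-attracting class, while for the neutrophil-attracting class KO 3 was the lowest of the 8 arrays. Set by equal numbers, the median difference of the monocyte-attracting class was 0.91, 0.51, 0.47 and 2.37 for numbers 1 to 4, and that of the neutrophil-attracting class was 0.03, 0.83, -0.49 and 1.98.

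Some immune cell markers were high in the same arrays as the ligands and others were not. The part of any marker list in the ligand values was not tested. Of the 14 monocyte and macrophage markers, 8 were called higher and 0 lower in KO (14.6% and 6.99% of all genes, and 36.6% and 3.36% of genes with a mean level of 4 to 5), with a mean level of 4.82 to 6.19 in KO and 3.53 to 4.72 in WT. With the replicate block 13 of the 14 were called higher, where 16.7% of all genes were. Their level per array was -0.13, 1.25, 0.68 and 1.23 in KO 1 to KO 4, against -1.42, -0.23, -0.87 and -0.50 in WT 1 to WT 4, so all KO arrays were above all WT arrays. KO 3, at 0.68, was well above 0 here, while the monocyte-attracting ligands had -0.27 in that array. The Fc receptor Fcgr1 (1.92 ± 0.27), the macrophage receptor Adgre1 (2.29 ± 0.38) and the complement genes C1qc (1.23 ± 0.26) and C1qb (1.70 ± 0.41) had the smallest p of that list. Of 10 neutrophil markers 0 were called (limma, 1 at an unadjusted p under 0.05), and their mean level was 1.80, 3.32, 1.78 and 2.97 in KO 1 to KO 4, against 1.96 to 2.39 in WT. The neutrophil gene S100a8 read 1.31, 3.70, 1.48 and 3.70 in KO, against 1.62 to 2.04 in WT, with KO 2 and KO 4 high as in Cxcl3 and Cxcl5, and S100a9, Retnlg and Csf3r were also highest in those arrays. It was chosen after its values were seen, and not all 10 markers did this: 6 had a positive and 4 a negative difference, Ltf and Ngp were highest in KO 2 alone, and Ly6g, Mpo, Elane and Camp were lower in KO on average, without a call. Of 11 measured T and NK cell markers 0 were called (limma, 1 at an unadjusted p under 0.05, mean level 1.73 to 1.96 in KO and 1.70 to 2.41 in WT). Of 8 stellate and fibroblast markers 0 were called (limma, 4 at an unadjusted p under 0.05, mean level 5.01 to 7.05 in KO and 4.65 to 5.94 in WT), and 5 were higher with the replicate block. The median level of that list was 5.81, and 39.7% of genes with a mean level of 5 to 6 were called higher without the block. Of 6 endothelial, 7 measured dendritic cell and 7 measured eosinophil and mast cell markers 0 were called (limma, 1, 4 and 1 at an unadjusted p under 0.05), and 1 dendritic cell marker was called higher with the block. Of 5 measured ductal markers 1 was called higher and 1 lower, and of 6 markers of lymph node and spleen stroma 1 was called lower. Glycam1, a gene of lymph node vessels, read 1.75 to 2.22 in KO, against 1.83 to 1.98 in WT 1 to WT 3 and 7.19 in WT 4. WT 4 was also the highest array for the T cell genes Cd3e (4.21), Cd4 (3.17) and Cd8b1 (3.02) and for Cr2 (3.19). Of the other T and NK cell markers, Cd3g and Klrb1c were also highest in WT 4. Cd3d and Gzmb were highest in WT 2, Cd8a and Gzma in WT 3, Cd2 in KO 2 and Ncr1 in KO 4. Glycam1, Cr2 and the T cell genes were named after their values were seen. WT 4 had the highest level of the lymphocyte-attracting ligands among the WT arrays (0.25), below that of KO 2 and KO 4. As no detection calls were used, values of dim markers may lie at background.

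**Figure D4:**
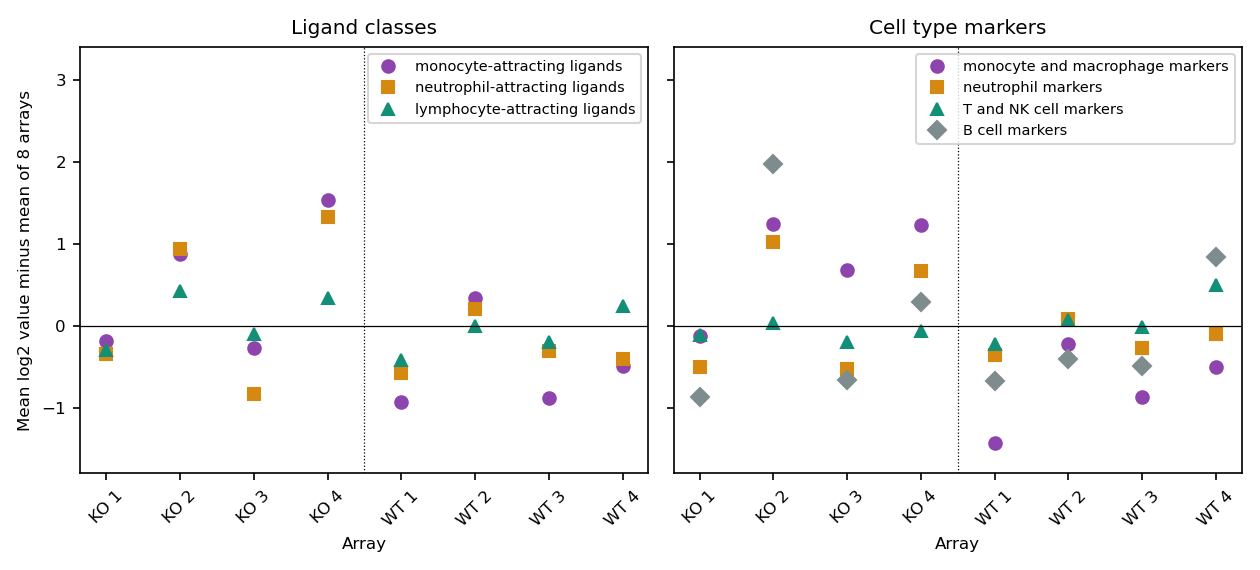
Level of 3 ligand classes (left) and of 4 marker lists (right) in each array (x axis, KO left of the dotted line), as the mean over genes of the log2 value minus the mean of the 8 arrays (y axis). The macrophage markers are higher in all 4 KO arrays than in any WT array, while the neutrophil markers and neutrophil-attracting ligands are high in KO 2 and KO 4.

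Of the 17 measured chemokine receptor genes 1 was called higher and 1 lower in KO (median difference -0.03), and with the replicate block 2 were higher and 1 lower. Ccr2, the receptor of Ccl2, Ccl7 and Ccl12 on monocytes, read 4.08, 5.07, 4.61 and 5.27 in KO 1 to KO 4, against 2.84, 3.78, 2.74 and 3.02 in WT 1 to WT 4. All KO arrays were above all WT arrays, and Ccr2 rose by 1.66 ± 0.29 (3.15-fold, adjusted p = 0.00617). Ccr8, the mouse receptor of Ccl8, was dim and called lower, at 1.48 ± 0.04 in KO and 2.13 ± 0.45 in WT (-0.66 ± 0.20, adjusted p = 0.0442), WT 1 lying within the KO range. Ccr1, a receptor of Ccl3, Ccl6 and Ccl9, read 2.21, 5.20, 2.16 and 4.77 in KO, against 2.02, 2.66, 1.92 and 1.46 in WT (1.57 ± 0.67, adjusted p = 0.114). Cxcr3 (-0.34 ± 0.13, adjusted p = 0.0805) and Xcr1 (-0.43 ± 0.18, adjusted p = 0.105), the receptors of Cxcl11 and Xcl1, were not called. Of the 5 atypical receptor genes, whose proteins take up chemokines without signalling through G proteins, 0 were called (limma, 1 at an unadjusted p under 0.05).

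NF-kB is the transcription factor best known to switch on inflammatory chemokine genes. Of 12 measured genes of its subunits and inhibitors 3 were called higher and 0 lower, with a median difference of 0.48. Of all genes with a mean level of 4 to 5, where the list's median level of 4.12 lies, 36.6% were called higher and the median difference was 0.45, so the list's values are near those of genes of like level. Rela, the p65 subunit, rose by 1.36 ± 0.18 (adjusted p = 0.00225) and read 7.36 to 8.01 in KO and 6.08 to 6.68 in WT. The kinase subunit Ikbkg (0.76 ± 0.15, adjusted p = 0.00935) and the subunit Rel (1.32 ± 0.41, adjusted p = 0.0456) also rose. Among 16 inflammatory cytokines 1 was called higher, Tgfb1 (1.59 ± 0.36, adjusted p = 0.0155), and 1 lower, the dim Il17a (-0.52 ± 0.15, adjusted p = 0.0382), and with the replicate block 4 were higher and 0 lower. Il1b, a cytokine that induces neutrophil-attracting ligands, read 2.03, 5.53, 1.77 and 5.83 in KO, against 1.94, 3.26, 1.26 and 1.88 in WT. It was high in KO 2 and KO 4, as Cxcl3, Cxcl5 and Ccl24 were, and its difference of 1.70 ± 0.92 was not called (adjusted p = 0.192). Il1b was chosen after its values were seen, and its part in the ligand values was not tested. Il1a, Tnf, Il33, Csf1 and Tgfb1 were also highest in KO 2 and KO 4. Il6, Il18, Ifng, Ifnb1, Csf2, Csf3, Il17a, Il10, Lif and Il11 were not.

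Differences over all genes varied with the signal of the row, which also depends on its probes. Of 8235 genes with a mean level under 2 the median difference was -0.19, with 6.93% called lower and 0.486% higher, and 6 ligands fell in this range with a median of -0.26. Between 2 and 3, where 13 ligands lay, all 4631 genes had a median of -0.17 and 12.2% were called lower. All 3 ligands called lower (Cxcl11, Xcl1 and Cx3cl1) had mean levels under 3. From 3 to 4 the median of all genes was 0.26 and 22.9% were called higher, and from 4 to 5 it was 0.45 and 36.6% were. Ccl8 lay in the first and Cxcl16 in the second of these ranges. Both differed by more than the median of their range, but they were picked by being called higher, so this adds no separate evidence. Between 5 and 6 the median of all genes was 0.50, against 0.17 for the only ligand there (Ccl11). Between 6 and 8 the median of all genes was 0.39, against 1.25 for the 3 ligands there (Ccl6, Ccl9 and Cxcl13), of which 0 were called without the replicate block.

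**Figure D5:**
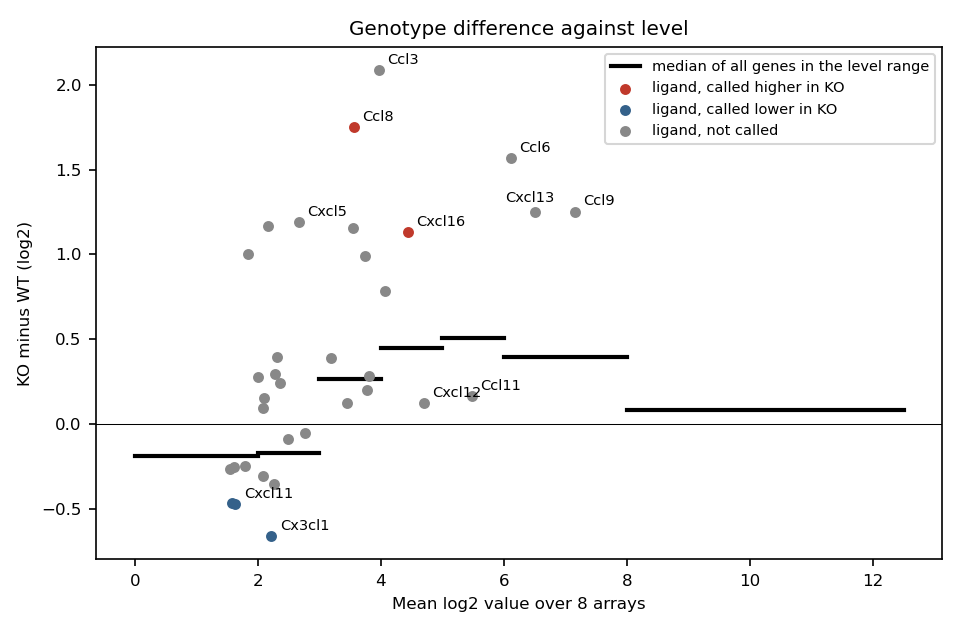
Difference of each ligand, KO minus WT on the log2 scale (y axis), against its mean level over the 8 arrays (x axis). Black lines are the medians of all genes in each range of level, from -0.19 under 2 to 0.50 between 5 and 6; the 3 ligands called lower (blue) lie below a level of 3 and the 2 called higher (red) between 3 and 5.

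Neighbouring ligand genes did not all have the same differences. In the RefSeq table Ccl2, Ccl7, Ccl11, Ccl12, Ccl8 and Ccl1 follow each other on chromosome 11. Their differences in that order were 1.16, 0.79, 0.17, 1.17, 1.75 and -0.26. A second run on that chromosome holds Ccl5, Ccl9, Ccl6, Ccl3 and Ccl4, with 0.28, 1.25, 1.57, 2.09 and -0.31. On chromosome 5, Cxcl3, Cxcl15, Cxcl1 and Cxcl2 differed by 1.0, -0.25, 0.39 and 0.39. Ligands of these clusters have related sequences, and since probe sequences were not used here, signal shared between relatives was not tested.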

How the data were processed

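Total RNA was labelled from 100 ng with a whole-transcript kit, per the labels' protocols, and the authors deposited 1 table of log2 values for 41345 rows and 8 arrays. Oligo, RMA and limma are named in the submitters' processing notes without versions. The log base is not stated, and log2 is read from the values' range. Precision is limited by there being 8 arrays, and no detection calls were used. Whether each array is a separate mouse is not said outright, so p-values cover only the spread between arrays, which may in part be technical.

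Rows were named through the platform annotation: 23521 had 1 symbol, 1814 several and 16010 none, and the last 2 kinds were left out. Genotype was fitted with limma 3.58.1 (lmFit, eBayes) in R 4.3.3 over 22180 genes, with Benjamini-Hochberg adjustment and a threshold of 0.05. Exact permutation tests took the arrays as unpaired, and with 4 pairs no p under 0.125 could be reached. The fit was also run on simulated data of 22180 genes, of which 200 were changed, with noise drawn independently for each gene. It recovered 79% of genes changed by 1 log2 unit and 100% of genes changed by 2, and 7.73% of calls were unchanged genes. The real data had 4792 calls and genes that moved together within an array. These shares are therefore not the power and error rate of the real data.

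Same-numbered arrays deviated together from their group means (correlations of 0.11 to 0.26 across genes, each over 0.1). The numbers may therefore pair the arrays, and a fit with the number as a block is given where it changes a call, while the reported calls, figures and permutation tests use no block. However, 2 of 12 differently numbered pairs also exceeded 0.1 and no litter or day is stated.

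The ligands, classes, lists and naming rule were chosen with earlier results of these data known. By that rule values in all arrays are given for ligands called, for those with a group mean of at least 5 and for the largest rise and fall of each class, and up to 4 called genes of smallest p in a list were named. Values of further members were added after they were seen. Alternatives were the replicate block, leaving out each array, a sex term, the males alone, 3 renormalizations, 2 variance models, a filter on level and the mean of a gene's rows. The filter kept genes with a mean of at least 4 in KO or in WT.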

Additional observations from a re-analysis of the deposited data

Results flagged for a closer look

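Dixon's test for an outlying array was made in each genotype for each ligand, in 68 groups of 4 arrays, of which chance alone flags about 1 in 20. It found 4. Ccl7 read 4.39 in WT 2, against 3.43 to 3.45 in the other WT arrays. Cxcl3 read 2.23 in WT 2, against 0.97 to 1.16 in the others. Ccl25, a ligand best known from the gut and thymus, read 3.33 in WT 2, against 3.75 to 3.81. Cxcl16 read 4.17 in KO 1, against 5.21 to 5.34 in the other KO arrays. Of these values 3 are of WT 2.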

How the results depend on the processing

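With 4 arrays a genotype, a ligand that varies as Cxcl13 or Cxcl5 does can be called only if its difference is large, and values of dim ligands may lie at background. Over all genes 4792 were called, 67.6% of them higher in KO. The count was 915 in males only (84.2% higher), 2370 with quantile normalization of the deposited values (51.8%), 2699 with cyclic loess (56.4%) and 2240 to 6070 with an array left out. With median centring 87.7% were higher, and the all-gene median was 0.08 in place of -0.06. Ligands called higher numbered 2 as reported, 5 with the replicate block, 4 after median centring, 0 in males only and after both renormalizations, and 1 to 3 with an array left out (1 without KO 2, WT 3 or WT 4). Ligands called lower numbered 3 as reported. They numbered 1 with the block or sex as a term, and 0 in males only, after both renormalizations and after median centring. They also numbered 0 among genes with a mean of at least 4 in KO or in WT, where the dim ligands are left out by construction. With an array left out there were 0 to 2 (0 without KO 2, KO 3, KO 4 or WT 3 and 1 without KO 1 or WT 4). The cause of the losses after renormalization was not tested. Under the filter the median of the lymphocyte-attracting class was 1.19 and that of all genes 0.47. The filter keeps few genes of that class. A gene can pass it through a single group, as Cxcl16 did (mean 5.01 in KO and 3.88 in WT). The filtered median is therefore no separate evidence of a rise. The median of the other ligands was -0.23 after quantile normalization, -0.17 after cyclic loess and -0.18 to 0.31 with an array left out. Ccl11 turned to -0.094 in males only, -0.26 after quantile normalization and -0.24 after cyclic loess, and ran from -0.072 (without KO 4) to 0.31 with an array left out. Cxcl12 turned to -0.27 after quantile normalization, -0.24 after cyclic loess, and ran from -0.18 (without KO 2) to 0.35 with an array left out, with -0.0013 without WT 1. The block changed calls only of the ligands named in the text with it.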

Other observations

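On the array, 33 further rows carry several gene symbols of which at least 1 is a chemokine, and they name no gene here. In a fit over all 41345 rows 0 of the 33 were called in either direction (limma, 6 at an unadjusted p under 0.05, smallest adjusted p = 0.0909). Their values lay between 1.49 and 6.28 and their differences between -0.57 and 0.50.

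Whether the genotype difference differs between the female and the males was fitted with 4 genotype-by-sex groups, which have 1 female each. With so few females the fit called 1 of 22180 genes, so that it says little about the ligands (0 of 34 called by limma, 5 at an unadjusted p under 0.05).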
